A study of Rattus norvegicus and Mus musculus with 74 samples.

Results

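H3K9me3, the trimethylation of lysine 9 on histone H3, was compared between the cortex of control rats and control mice over genes that carry the same symbol in both species. The deposited tables list genes beside merged regions of ChIP-seq signal, 1 table per species, and 14458 genes appeared in both, of 20110 in the rat table and 23362 in the mouse table. Where several regions listed a gene, the region with the largest mean signal over that species' libraries of every mark and treatment was used. The 14458 genes thus rested on 10117 of 72824 rat regions and 9718 of 60110 mouse regions. The samples were 3 H3K9me3 libraries from healthy, vehicle-treated Sprague-Dawley rats and 3 from healthy, vehicle-treated C57BL/6J mice, of 74 samples in the series. Chromatin came from frozen brain cortex, and the labels name the same antibody product and lot in both species but give neither age nor sex. A second set of H3K9me3 libraries, used below for the same contrast, came from prenatally exposed animals: 6 from rats exposed to valproate (VPA) and 6 from mice exposed to poly I:C, which mimics viral RNA. Of each 6, 3 libraries came from animals given vehicle and 3 from animals given TAK-418, which inhibits the demethylase LSD1. Whole cortex mixes neurons, glia and vascular cells, so more marked cells and more mark per cell cannot be told apart. Whether the 3 libraries of a species stem from different animals is not stated in the labels, so each p reflects no more than the scatter among these libraries, part of which may be technical.

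H3K9me3 is written by SUV39H, SETDB1 and related enzymes and is bound by HP1 proteins, which compact chromatin into constitutive heterochromatin. SETDB1 is brought to retroviral elements and to selected gene clusters by KRAB zinc finger proteins and their partner TRIM28, and in the brain it also acts on clustered gene families such as the protocadherins and on the silenced copy of imprinted genes. The mark is known to coat repeat-rich DNA, zinc finger clusters and tandem gene families that most cells never use.

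Because each species has its own table, with a scaling that is not stated, raw signal was not compared between species. Within each library the 14458 genes were ranked instead, and a gene's level is its percentile, from 0 for the lowest signal to 100 for the highest. Species, genome build, set of regions and table change together in this comparison, so their parts in any difference cannot be told apart. Most genes had little H3K9me3: the median mean signal was 1.615, 1.702 and 1.715 in the rat libraries and 2.152, 1.903 and 1.822 in the mouse libraries, and the quartiles of rat library 1 were 1.49 and 1.742. A move of many percentile points in the middle of the range is therefore a small move in signal. The libraries were uneven: the authors' calling found 7704, 15861 and 15533 H3K9me3 intervals in the rat libraries and 32258, 8395 and 4460 in the mouse libraries. Rat library 1 and mouse library 1 stood apart from the others of their group in this number, and results are given without both. As a check of the tissue, H3K9Ac, a mark of active promoters and enhancers, had a percentile of 93.9 (rats) and 64.3 (mice) at the synaptic gene Snap25 and of 94.3 (rats) and 62.7 (mice) at the cortical neuron gene Tbr1. Other neuronal markers were lower in rats, such as Rbfox3 (34.7 in rats and 63.7 in mice), Map2 (20.2 in rats and 64.4 in mice) and Gad1 (19.7 in rats and 20.7 in mice). It stood at 10.2 in rats and 31.1 in mice at the liver gene Apoa1, and at 10.2 in rats and 9.83 in mice at Kl, a gene of the choroid plexus, but at 81.3 in rats and 39.6 in mice at the muscle gene Acta1. Glial markers were mixed. Gfap (39.4 in rats and 33.6 in mice) and Olig2 (21.3 in rats and 22.2 in mice) were not high. Slc1a2 (61.7 in rats and 50.2 in mice), Aif1 (57.1 in rats and 71.4 in mice) and Mbp (24.2 in rats and 74.9 in mice) were higher in 1 or both species. Drd1, Ttr, Alb, Myh4, Hbb-b1 and Alas2 were not among the shared genes, so these marks check the tissue only loosely.

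Gene by gene, H3K9me3 was the least similar of the 4 marks between rat and mouse. The Spearman correlation between the species means over 14458 genes was 0.421 for H3K9me3, against 0.718 for the Polycomb mark H3K27me3, 0.736 for the promoter mark H3K4me3 and 0.670 for H3K9Ac. Single libraries were also less alike for H3K9me3: the correlation was 0.269 to 0.381 between a rat and a mouse library, 0.473 to 0.684 between rat libraries and 0.597 to 0.695 between mouse libraries. For H3K4me3 the same values were 0.716 to 0.737 between species, 0.956 to 0.983 between rat libraries and 0.989 to 0.992 between mouse libraries. Each of these is a description across genes, many of which share a region, and not a test. The Spearman correlation for H3K9me3 was 0.483 over genes whose region lay at or within 5 kb of the gene start in both species. Among genes with an interval called in at least 2 of 3 libraries of either species it was -0.00957. That filter admits a gene through either species and drops genes low in both, which can lower the correlation by itself. The value is therefore no measure of agreement among marked genes.

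**Figure D1:**
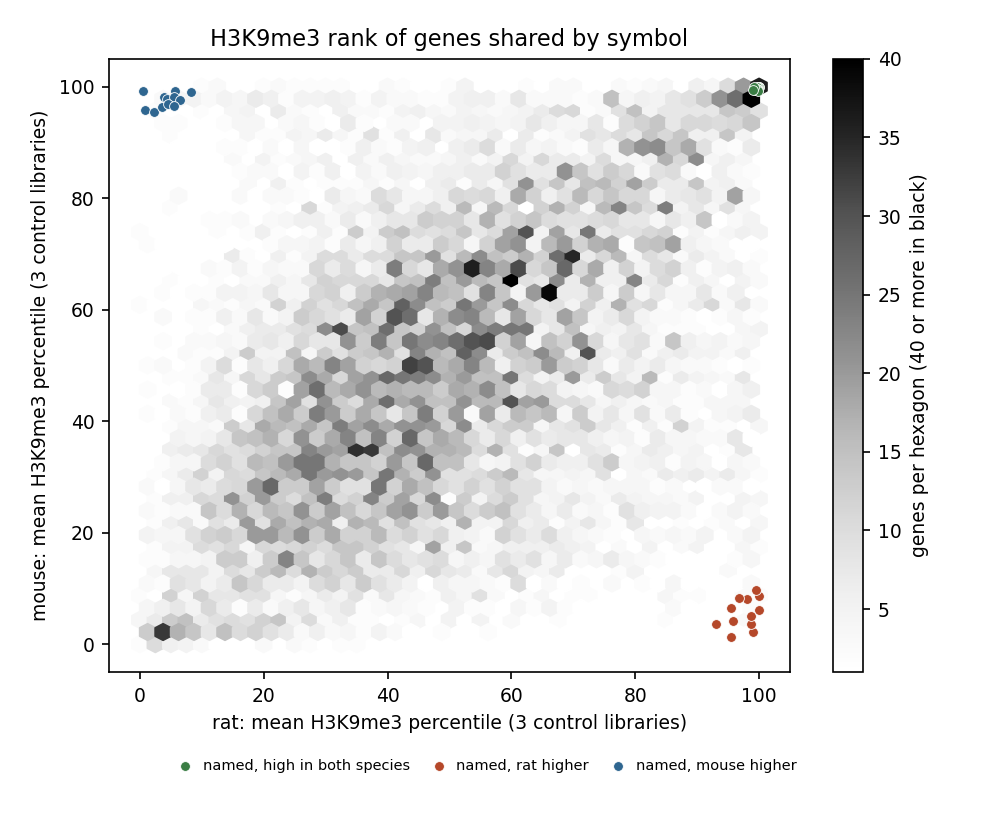
Mean H3K9me3 percentile of the 14458 shared genes in the 3 control rat libraries (horizontal axis) and the 3 control mouse libraries (vertical axis), with the number of genes per hexagon in grey (40 or more in black) and the named genes as coloured points. The cloud follows the diagonal loosely (Spearman correlation 0.421), with a dense corner of genes high in both species, and the named differences sit in the 2 opposite corners.

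A small set of genes carried high H3K9me3 in both species. The mean percentile was 95 or more at 501 genes in rats and 584 in mice, and at 161 genes in both, which is 32.1% of the rat genes and 27.6% of the mouse genes. At percentile 99 or more there were 108 genes in rats, 117 in mice and 30 in both. By the authors' interval calls, 2063 genes (14.3% of all) had an interval in at least 2 of 3 rat libraries and 817 (5.65%) in at least 2 of 3 mouse libraries. The 401 genes with such calls in both were 19.4% of the rat genes and 49.1% of the mouse genes.

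The 161 genes high in both rested on 135 pairs of regions, and 73 of them (45.3%) belonged to a list described below, as did 1044 of all 14458 shared genes (7.22%). They held 21 beta-protocadherin genes (neuronal adhesion proteins encoded in a tandem array), the Cd209a to Cd209e lectins of dendritic cells and macrophages, Sult2a sulfotransferases of liver, Oas1 antiviral enzymes, Tas2r bitter taste receptors, Ceacam and Psg glycoproteins of the placenta and epithelia, and granzymes and Klr receptors of killer lymphocytes. They also held 10 zinc finger genes, the imprinted genes Mkrn3, Magel2, Snrpn, Snurf and Zdbf2, and the germline genes Dazl and Mael. In rats 34 of the 161 (21.1%) lay on chromosome 1, which holds 12.8% of all shared genes, and in mice 29 (18.0%) lay on chromosome 7, which holds 7.78%. How reads from near-identical copies were placed is not given in the sources used here, so single members of such families are uncertain.

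Smok2a, a sperm motility kinase, and Zfp112, a zinc finger gene, headed the genes high in both. Smok2a had percentiles of 99.91, 99.96 and 99.97 in the rat libraries and of 99.99 or more in the 3 mouse libraries. Its signal was 5.34, 14.2 and 14.3 in rats (chr1:55352600-55356599, rn5) and 40.7, 13.6 and 9.59 in mice (chr17:13210800-13221999, mm10). Zfp112 had a signal of 5.70, 13.0 and 12.5 in rats (chr1:82194800-82213199) and 15.8, 6.34 and 4.66 in mice (chr7:24084200-24116999). In every library of both species these genes were well above the median gene, and at both the mouse libraries ranked slightly higher than the rat libraries, without overlap. The authors' calling found an interval in 3 rat and 3 mouse libraries at Zfp112, but in 3 rat and 0 mouse libraries at Smok2a.

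Several neighbours in this ranking encode immune receptors and secreted proteins. Il3ra, the interleukin-3 receptor alpha chain, had a signal of 3.05, 10.1 and 9.42 in rats and 15.4, 5.97 and 4.61 in mice. Ceacam3, an adhesion glycoprotein of the carcinoembryonic antigen family, had 3.28, 6.70 and 7.04 in rats and 10.8, 3.95 and 3.26 in mice. Mup5, a major urinary protein, had 4.44, 6.40 and 7.78 in rats and 8.37, 4.05 and 3.14 in mice. All 3 genes lay at percentile 99 or above in all 6 libraries. Klf14, an intronless Krüppel-like transcription factor, lay at 99.54, 99.80 and 99.78 in rats and at 99.65, 99.46 and 99.60 in mice. The other named genes of this set were Apba2 (an adaptor of the amyloid precursor protein), Pcdhb11, Dspp (a dentin protein), Csf2ra (the receptor chain for the myeloid growth factor GM-CSF), Psg29 and Cd209b, each at a mean percentile of 99 or more in both species. The mouse region of Apba2 was only 199 bp long, and with the region nearest to the gene start the lower of its species means was 33.3. An interval was called in 1 mouse library at Apba2, in 0 at Csf2ra and in 3 at the other genes named in this paragraph. Using the highest rather than the mean signal of a region, Cd209b moved to 87.1 and Psg29 to 92.2.

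Taken by their median, these genes had little of the marks of active promoters, with exceptions. At the 161 genes high in both, the median percentile of H3K4me3 was 5.97 ± 0.738 in rats and 4.72 ± 0.254 in mice, and that of H3K9Ac was 4.28 ± 0.277 in rats and 3.51 ± 0.0549 in mice (median of gene means, with the SD of 3 library medians). Among the exceptions, H3K4me3 stood at 84.8 in rats and 31.1 in mice at Il3ra, at 85.9 in rats and 99.7 in mice at Csf2ra, and at 83.5 in rats and 98.4 in mice at Snrpn. H3K27me3 was also below the middle, at 24.7 ± 8.39 in rats and 17.4 ± 8.32 in mice. CpG islands were listed in 31.1% of their rat regions and 37.9% of their mouse regions, against 79.2% and 83.0% over all genes. The rat region held the gene start at 81 of the 161 genes and at 10753 of all 14458 genes. Since regions were chosen by signal over every mark, a gene with a strongly marked active promoter tends to be represented by that promoter. Low active marks and few CpG islands at genes high in H3K9me3 can follow in part from that choice. How far they do was not tested. Across all 14458 genes, the H3K9me3 percentile had a Spearman correlation of -0.119 in rats and -0.324 in mice with H3K4me3, of 0.261 in rats and 0.315 in mice with H3K27me3, and of 0.0111 in rats and 0.00417 in mice with H3K9Ac.

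**Figure D2:**
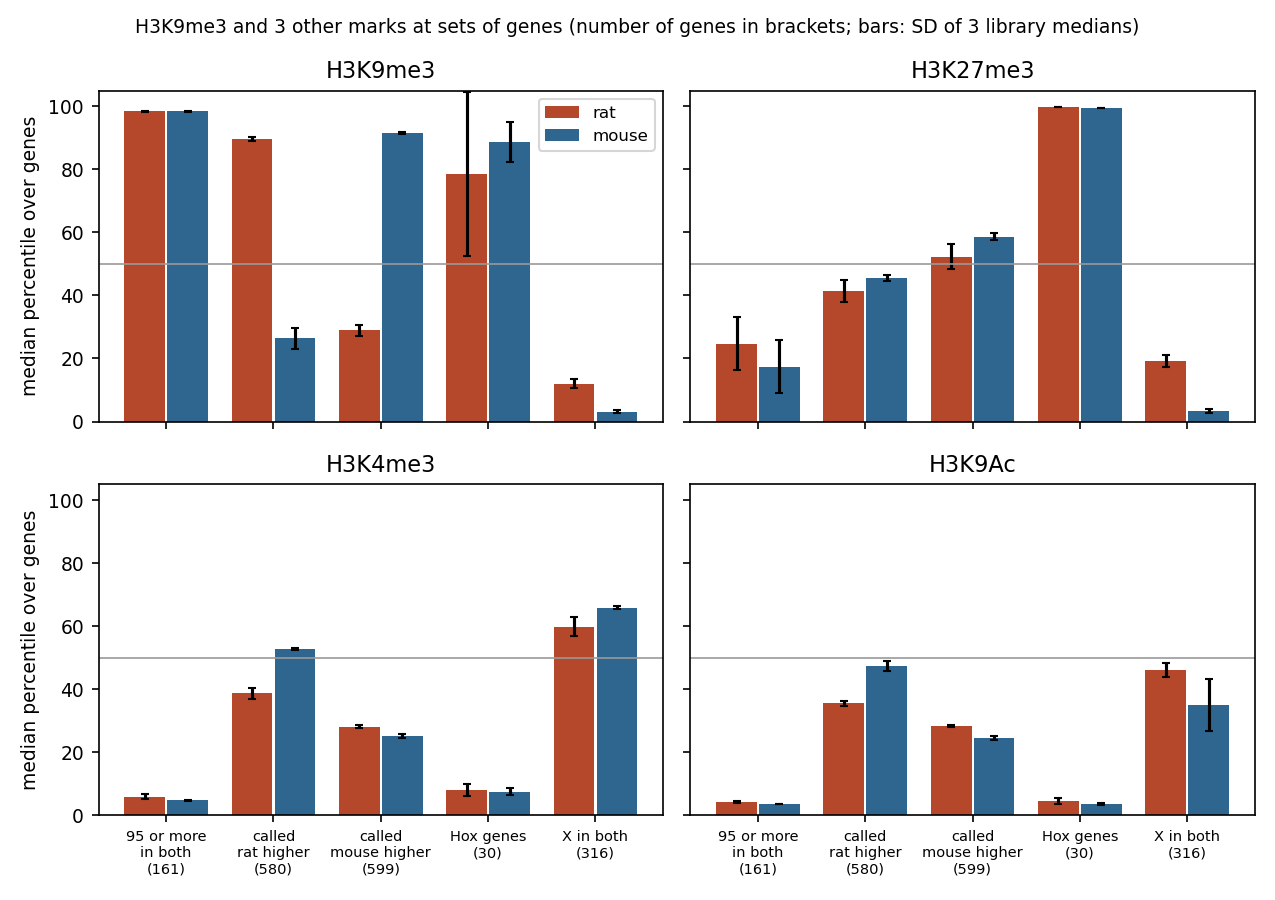
Median percentile of each of the 4 marks (vertical axis) in rats and mice at 5 sets of genes, with error bars for the SD of 3 library medians, 1 of which passes 100 (H3K9me3 at the Hox genes in rats). Genes high in H3K9me3 in both species had medians of 5.97 or less for H3K4me3 and H3K9Ac, and Hox genes had 99.5 or more for H3K27me3.

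The promoters of the highly marked genes held few CpG dinucleotides. In RefSeq promoter sequences of the rat assembly GRCr8, which run from 250 bases before to 50 bases after the gene start and were matched by symbol for 10993 genes, 49 of 126 genes high in both (38.9%) had fewer than 5 CpGs, against 12.3% of all genes. The median was 6 CpGs in the genes high in both and 19 in all genes. The part of the choice of region in this was not tested. By rat percentile, the share with fewer than 5 CpGs was 28.1% among genes at 95 to 100 and 9.30% among genes at 40 to 60, and by mouse percentile, with the same rat sequences, 40.1% and 10.7%. Where the rat region held the gene start, the share was 22.7% in the genes high in both and 7.61% in all genes. The GRCr8 promoters of 3 such genes are printed because they span this range, with every CpG in capitals. Ceacam3 (chr1:86991734-86992033, plus strand) has 2 CpGs and Mup5 (chr5:79999646-79999945, minus strand) has 5, whereas Klf14 (chr4:60524236-60524535, minus strand) has 26 and is among the exceptions.
Ceacam3: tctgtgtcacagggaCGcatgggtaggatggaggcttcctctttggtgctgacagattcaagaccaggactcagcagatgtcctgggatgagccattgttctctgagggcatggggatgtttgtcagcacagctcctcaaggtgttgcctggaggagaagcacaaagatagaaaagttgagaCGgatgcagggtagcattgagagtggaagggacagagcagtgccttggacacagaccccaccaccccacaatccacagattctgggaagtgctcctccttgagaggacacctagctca
Mup5: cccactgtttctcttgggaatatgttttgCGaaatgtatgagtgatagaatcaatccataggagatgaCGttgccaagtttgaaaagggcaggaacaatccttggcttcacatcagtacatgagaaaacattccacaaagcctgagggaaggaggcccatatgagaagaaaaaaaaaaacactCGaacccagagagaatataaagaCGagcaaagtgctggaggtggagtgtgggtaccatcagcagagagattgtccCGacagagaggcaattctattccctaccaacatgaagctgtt
Klf14: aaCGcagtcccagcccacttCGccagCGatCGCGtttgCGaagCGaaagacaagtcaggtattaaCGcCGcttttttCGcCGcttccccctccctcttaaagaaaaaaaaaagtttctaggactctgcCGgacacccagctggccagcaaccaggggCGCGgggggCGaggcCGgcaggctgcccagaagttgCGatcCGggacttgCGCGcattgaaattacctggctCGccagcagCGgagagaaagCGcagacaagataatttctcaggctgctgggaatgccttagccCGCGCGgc

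**Figure D3:**
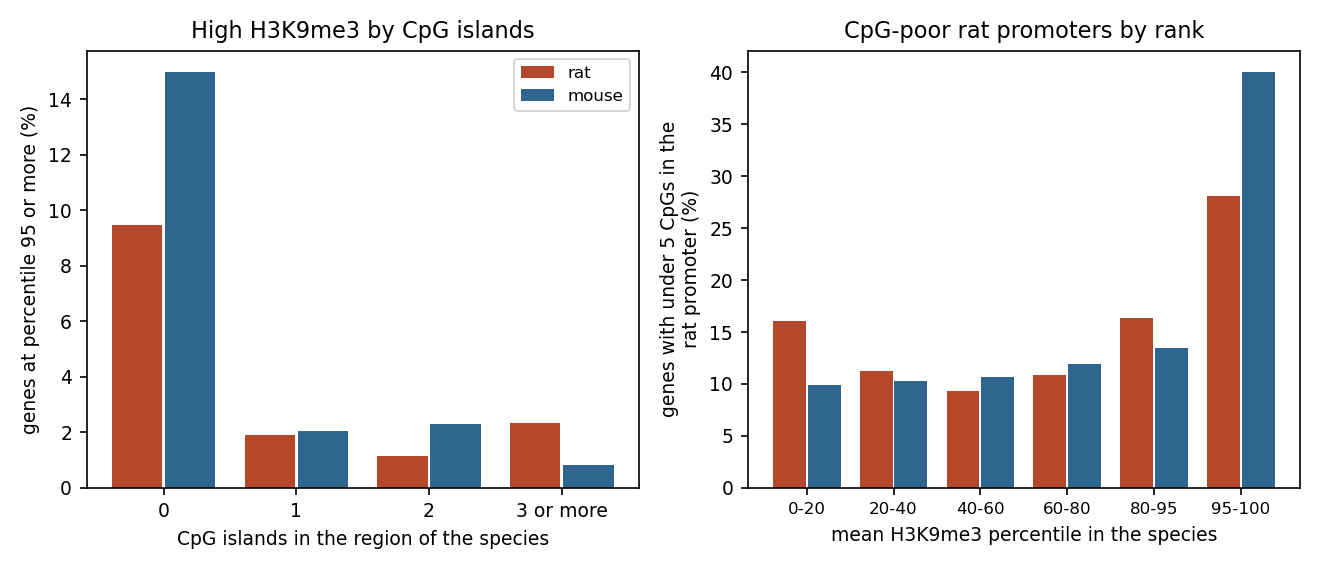
Left, share of genes at H3K9me3 percentile 95 or more by the number of CpG islands listed in the gene's region, in rats and in mice. Right, share of genes with fewer than 5 CpGs in the rat RefSeq promoter by mean H3K9me3 percentile in rats or in mice, which is highest in the top bin, at 28.1% by rat and 40.1% by mouse percentile.

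Regions with no CpG island also held most of the high ranks in the tables' own annotation. A mean percentile of 95 or more was reached by 9.46% of rat genes whose region listed no island and by 1.92% of those with 1 island, and in mice by 15.0% and 2.06%. Region length moved with the level too: the median percentile was 39.6 among genes with rat regions of up to 6399 bp and 63.1 among those of 45599 bp or more, and in mice 32.9 up to 8799 bp and 67.4 from 58599 bp. The part of region length in the results was not tested beyond ranking within bins of length, which gave a Spearman correlation between species of 0.319.

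Of the gene lists, chemosensory receptors and other tandem families had the highest H3K9me3 in mice and stood above the middle in rats. The 28 shared chemosensory receptor genes (olfactory, vomeronasal, taste and formyl peptide receptors) had a median percentile of 87.3 ± 4.92 in rats and 96.3 ± 1.22 in mice, against 48.8 and 49.2 for all genes. In the authors' interval calls, 20 of the 28 were marked in at least 2 rat libraries and 16 in at least 2 mouse libraries. The 136 genes of other clustered families (serpins, defensins, sulfotransferases, C-type lectins, secretoglobins and others) had a median of 70.1 ± 4.15 in rats and 89.3 ± 2.40 in mice. The libraries did not overlap, at 74.4, 81.0 and 82.0 in rats and at 96.4, 95.02 and 91.7 in mice (library medians). Gene by gene the difference was smaller, with a median rat minus mouse difference of -5.77 points, and of -4.76 at the chemosensory genes. Over all genes it was -0.726. Among family genes with an interval called in at least 2 libraries of either species, it was -0.855. H3K4me3 was low at these families in both species, with a median of 4.40 in rats and 3.27 in mice.

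Single genes of these families passed the test more often on the mouse side. Across all genes, limma with Benjamini-Hochberg adjustment at 0.05 called 580 genes higher in rats (4.01%) and 599 higher in mice (4.14%). Of the 136 clustered family genes it called 3 higher in rats and 18 higher in mice (13.2%), among them 7 defensins (antimicrobial peptides: Defb1, Defb14, Defb30, Defb50, Defb28, Defb36 and Defb25) and 5 serpin protease inhibitors. Of the 28 chemosensory genes, 3 bitter taste receptors were higher in mice (Tas2r116, Tas2r117 and Tas2r136) and 0 genes in rats. The unadjusted limma p was under 0.05 at 11 of the 28 higher in mice and at 0 higher in rats. Over all 14458 genes it was under 0.05 at 3355, both directions together. Clec2h, a lectin of the natural killer gene complex, was at 0.111, 14.2 and 15.0 in the rat libraries and at 97.2, 97.2 and 98.5 in the mouse libraries. The libraries did not overlap at Clec2h (difference -87.9 points, SE 9.77, limma adjusted p = 0.00549), but its rat region was 599 bp long and the difference in exposed animals was -3.09 points (adjusted p = 0.938).

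Zinc finger genes as a whole were near the middle, with members at both ends. The 219 zinc finger genes had a median of 53.1 ± 5.06 in rats and 47.4 ± 0.100 in mice. Limma called 15 higher in rats (6.85%) and 13 higher in mice (5.94%), against 4.01% and 4.14% of all genes. High in both were 10 of them, and 161 of all 14458 genes. Zscan10, a zinc finger gene of embryonic stem cells, was at 95.3, 98.1 and 98.3 in rats and at 12.5, 3.14 and 16.1 in mice. Zfp458 went the other way, at 28.8, 2.57 and 8.36 in rats and at 99.3, 99.3 and 99.4 in mice. Neither gene's rat and mouse libraries overlapped (86.7 points, SE 9.54, adjusted p = 0.00549 for Zscan10, and -86.1 points, SE 10.4, adjusted p = 0.00553 for Zfp458, both limma).

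Imprinted genes were more often high in rats, with 12 of 38 at percentile 95 or more in rats, 6 in mice and 4 in both. Over all 14458 genes, 501 reached percentile 95 in rats, 584 in mice and 161 in both. The 38 imprinted genes, expressed from 1 parental copy, had a median of 80.2 ± 7.25 in rats and 68.1 ± 9.70 in mice, with a median difference of 3.56 points. An interval was called in at least 2 libraries at 23 of them in rats and 6 in mice, against 14.3% and 5.65% of all genes. Limma called 3 higher in rats (7.89%) and 1 higher in mice (2.63%), against 4.01% and 4.14% of all genes. Mkrn3, in the Prader-Willi cluster, averaged 98.98 in rats and 99.6 in mice, and Magel2 beside it 97.8 in rats and 98.2 in mice. Copg2, a coatomer subunit next to Mest, was at 99.5, 99.9 and 99.9 in rats and at 10.3, 17.2 and 33.5 in mice, without overlap (79.4 points, SE 9.65, limma adjusted p = 0.00553). Impact, a regulator of translation, also passed the test, at 99.82, 99.95 and 99.91 in rats and at 39.9, 11.3 and 16.6 in mice (77.3 points, SE 10.3, limma adjusted p = 0.00658). The rat region of Copg2 lay downstream of the gene and the mouse region at its start, so that different parts of the locus were set against each other.

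The 50 clustered protocadherin genes shared 7 regions in each species, and 21 of them, all of the beta cluster, were high in both. Pcdhga4 and Pcdhgb2 of the gamma cluster, which share a region, were at 99.93, 99.94 and 99.96 in rats and at 51.8, 60.04 and 58.7 in mice (43.1 points, SE 5.58, limma adjusted p = 0.00633). At the clustered protocadherins, H3K9Ac had a median percentile of 43.3 ± 3.11 in rats and 88.7 ± 1.41 in mice. The regions were long (104799 bp in rats and 59199 bp in mice at Pcdhga4), so single promoters of the array were not resolved.

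Developmental genes held moderate H3K9me3 beside their Polycomb mark in both species. The 30 Hox genes, which set body axis identity, had a median H3K9me3 percentile of 78.5 ± 26.0 in rats and 88.8 ± 6.40 in mice, and 65 other developmental transcription factors one of 79.3 ± 15.7 in rats and 79.9 ± 10.0 in mice. H3K27me3 stood at 99.7 in rats and 99.5 in mice at the Hox genes, and at 98.6 in rats and 98.8 in mice at the others. Limma called 0 of the 30 and 0 of the 65 genes. Its unadjusted p was under 0.05 at 1 Hox gene (higher in mice) and at 6 of the others (3 in each direction). Over all 14458 genes, 3355 had an unadjusted p under 0.05. After adjustment limma called 4.01% of all genes higher in rats and 4.14% higher in mice, a share that gives few calls in lists of this size. Rat library 1 was apart here, with a Hox median of 48.5 against 93.9 and 93.2 in the other rat libraries. The Hox genes rested on 8 rat and 4 mouse regions.

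**Figure D4:**
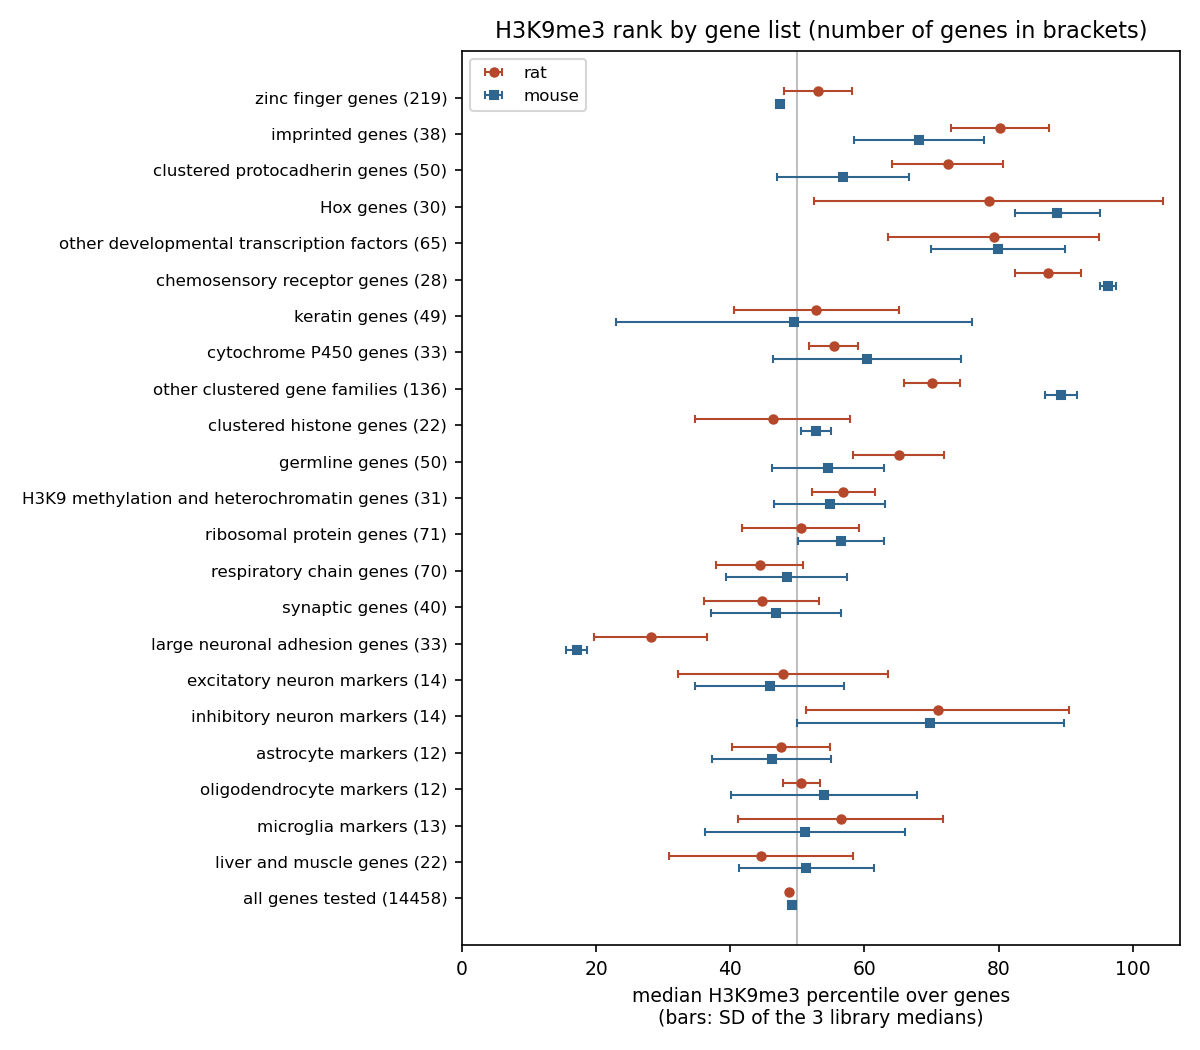
Median H3K9me3 percentile of each of the 22 gene lists and of all genes in the 3 rat and the 3 mouse control libraries (rat points above mouse points, bars are the SD of 3 library medians). Chemosensory receptor genes reach 87.3 in rats and 96.3 in mice, and large neuronal adhesion genes lie lowest, at 28.1 in rats and 17.1 in mice.

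Lists of neuronal adhesion and synaptic genes lay below the middle, and other lists of genes used in cortex lay on either side of it. Large neuronal adhesion genes, such as those for contactins and cadherins, were the lowest of the 22 lists in both species, with a median of 28.1 ± 8.43 in rats and 17.1 ± 1.53 in mice over 33 genes. Synaptic genes stood at 44.7 ± 8.60 in rats and 46.8 ± 9.70 in mice, respiratory chain genes at 44.4 ± 6.52 in rats and 48.4 ± 9.05 in mice, and ribosomal protein genes at 50.5 ± 8.72 in rats and 56.5 ± 6.37 in mice. Excitatory neuron, astrocyte and oligodendrocyte markers lay within 5 points of 50 in both species, and inhibitory neuron markers at 70.9 ± 19.6 in rats and 69.8 ± 19.9 in mice. Gad2, which makes the transmitter GABA, was the 1 inhibitory marker called, at 71.4, 79.8 and 82.6 in rats and at 96.1, 96.3 and 96.1 in mice (-18.3 points, SE 4.08, limma adjusted p = 0.0362), with a difference of 4.26 points in the exposed libraries. Mag, a myelin protein, was the 1 oligodendrocyte marker called, at 74.4, 89.9 and 91.3 in rats and at 45.5, 12.4 and 34.4 in mice (54.4 points, SE 11.6, limma adjusted p = 0.0323).

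The remaining lists were spread around the middle. Keratin genes had a median of 52.8 ± 12.3 in rats and 49.5 ± 26.5 in mice, cytochrome P450 genes 55.4 ± 3.66 in rats and 60.3 ± 14.0 in mice, and clustered histone genes 46.3 ± 11.6 in rats and 52.8 ± 2.27 in mice. Germline genes stood at 65.1 ± 6.79 in rats and 54.6 ± 8.37 in mice. Of 50, 4 were called higher in rats (8%) and 2 higher in mice (4%), against 4.01% and 4.14% of all genes. The 31 genes of H3K9 methylation and heterochromatin stood at 56.9 ± 4.67 in rats and 54.9 ± 8.28 in mice, and among them Atf7ip, a partner of SETDB1, reached 97.7 in rats and 97.3 in mice. Liver and muscle genes, which are silent in cortex, stood at 44.6 ± 13.7 in rats and 51.3 ± 10.1 in mice. Limma called 0 of these 22, and its unadjusted p was under 0.05 at 1 of them and at 3355 of all 14458 genes. Microglia markers stood at 56.5 ± 15.2 in rats and 51.2 ± 14.9 in mice.

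The 580 genes called higher in rats had a median percentile of 89.7 in rats and 26.4 in mice, and rested on 502 pairs of regions. The 599 called higher in mice had a median of 29.0 in rats and 91.4 in mice, and rested on 514 pairs. An interval was called in at least 2 rat libraries at 273 of the 580, against 14.3% of all genes. In at least 2 mouse libraries one was called at 193 of the 599, against 5.65% of all genes. In signal the moves were small: the genes higher in rats had a median of 1.96, 2.43 and 2.35 in the rat libraries, where all genes had 1.615, 1.702 and 1.715, and 1.96, 1.75 and 1.69 in the mouse libraries, where all genes had 2.152, 1.903 and 1.822. By the other rule, of no overlap and a difference of 25 points or more, 1380 genes were higher in rats (9.54%) and 1490 higher in mice (10.3%). Leaving out any single library but rat library 1 moved 1 or both counts by over 1.5 times. The counts higher in rats and in mice were 498 and 706 without rat library 1, 188 and 352 without rat library 2, and 197 and 377 without rat library 3. They were 413 and 203 without mouse library 1, 271 and 144 without mouse library 2, and 384 and 256 without mouse library 3. Without rat library 1 and mouse library 1 limma called 0 genes (3643 had an unadjusted p under 0.05), and 0 of the 1179 genes changed sign. The remaining libraries had also served to choose the 1179 genes, so their sign is no independent check. With the region nearest to the gene start, 81 of the 580 and 62 of the 599 genes changed sign. With the region highest in control H3K9me3, 111 and 99 did. Regions lay at or within 5 kb of the gene start in both species at 306 and 306 of them. Over all genes, 70.1% had such regions.

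The 12 genes that most exceeded mice in rats included several that the mouse carries on a sex chromosome. Hmgn5, a nucleosome-binding protein, was at 98.3, 99.3 and 99.3 in rats and at 5.24, 0.733 and 0.519 in mice. Its signal was 2.58, 4.84 and 4.92 in rats and 1.58, 1.25 and 1.14 in mice, without overlap in rank (96.8 points, SE 9.66, limma adjusted p = 0.00549). The rat region (chr1:125584400-125585199, rn5) was 799 bp long and lay on an autosome, whereas the mouse region (chrX:109010600-109015799, mm10) held the gene start. F8 (coagulation factor VIII), Brcc3 (a deubiquitinase of DNA repair) and Eif2s3y (a translation initiation factor on the mouse Y chromosome) were placed in the same way, on an autosome in the rat table and a sex chromosome in the mouse table. Whether those rat regions hold the same gene copy was not tested.

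The others of the 12 were autosomal in both or on the X in both. Ppp1r42, a phosphatase regulator, had a signal of 10.9, 15.8 and 12.5 in rats and 1.35, 1.48 and 1.59 in mice, and the amino acid transporter Slc38a5 had 6.54, 15.8 and 17.8 in rats and 1.80, 1.56 and 1.30 in mice. These 2 had the most signal of the 12 in rats, and at both an interval was called in all 3 rat libraries and in 0 mouse libraries. The antiviral helicase Ddx60, the testosterone-making enzyme Hsd17b3, the sodium channel partner Fgf14, the coiled-coil gene Ccdc172, the neurexophilin Nxph2 and the sodium-calcium exchanger Slc8a1 had differences of 88.5 to 93.6 points, each with a limma adjusted p of 0.00549. An interval was called in 3 rat libraries at Ddx60 and Hsd17b3, in 2 at Nxph2 and in 0 at Fgf14, Ccdc172 and Slc8a1. At Fgf14 the rat region lay 148320 bp into the gene, with H3K4me3 at percentile 6.10, whereas the mouse region lay near the start, with H3K4me3 at 98.6. Slc8a1 showed the same contrast of regions (H3K4me3 at 1.46 in rats and 84.2 in mice), as did the synaptic gene Syt1 (4.92 in rats and 95.4 in mice).

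The choice of region decided some of these calls. With the region nearest to the gene start, the difference was 26.8 points for Ppp1r42, 20.4 for Slc38a5 and 63.5 for Ccdc172, none past the threshold, and -1.43 for Hsd17b3. With the region highest in control H3K9me3, it was 19.0 points for F8, 4.03 for Ddx60, 1.82 for Hsd17b3, 4.66 for Fgf14 and -6.69 for Nxph2, none past the threshold. Hmgn5, Eif2s3y, Brcc3 and Slc8a1 kept their call under each of the 18 or 19 alternatives that gave them a value, other than that of 4 libraries, where the smallest adjusted p was 0.0547.

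**Figure D5:**
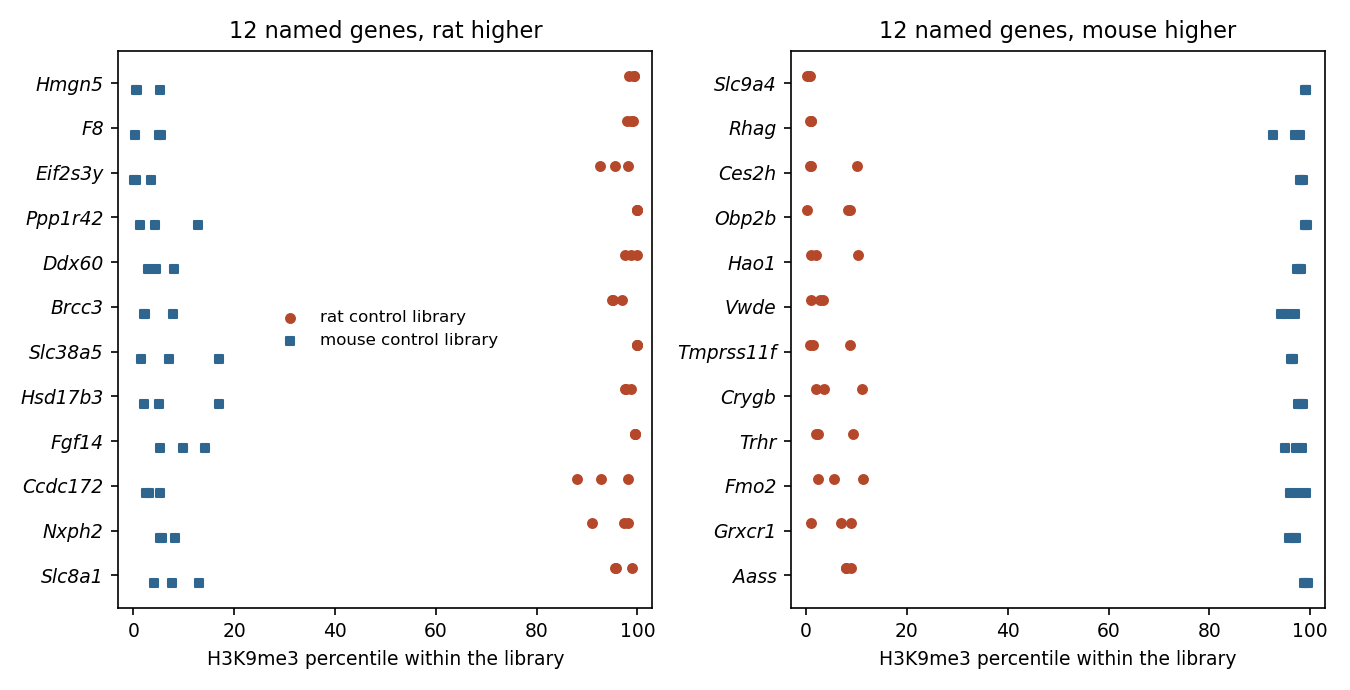
H3K9me3 percentile in each control library for the 12 genes with the largest rat minus mouse difference and the 12 with the largest mouse minus rat difference (rat points above mouse points, 1 point per library). In no gene do the 3 rat and the 3 mouse libraries overlap, since the genes were chosen for that.

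The 12 genes with most H3K9me3 in mice relative to rats were led, after a gene given below, by Rhag. Rhag, a red cell membrane protein, was at 1.03, 0.875 and 0.782 in rats and at 92.7, 96.9 and 97.9 in mice. Its signal was 1.04, 1.00 and 1.00 in rats (chr9:22339200-22341999, rn5) and 3.56, 2.72 and 2.51 in mice (chr17:40836000-40838799, mm10), without overlap (-94.9 points, SE 9.99, limma adjusted p = 0.00549). Crygb, a crystallin of the eye lens, was at 3.51, 11.1 and 2.00 in rats and at 98.5, 98.1 and 97.6 in mice (-92.5 points, SE 9.63, limma adjusted p = 0.00549). Hao1 (glycolate oxidase of liver), Ces2h (a carboxylesterase), Obp2b (an odorant-binding protein), Tmprss11f (a serine protease of epithelia), Trhr (the receptor of thyrotropin-releasing hormone) and Fmo2 (a flavin monooxygenase of lung) had differences of -94.3 to -91.2 points. These 8 genes kept their call under each of the 18 or 19 alternatives that gave them a value, other than that of 4 libraries. Some rest on short rat regions with hardly any signal. The rat region of Obp2b was 399 bp long, with a signal of 0, 1.3 and 1.3. Those of Ces2h (1.36, 1 and 1) and Tmprss11f (1.08, 1.3 and 1) were 1399 bp long. An interval was called in 3 mouse libraries at Obp2b and Trhr, and in 1 at Crygb, Hao1, Ces2h and Fmo2. At Rhag and Tmprss11f it was called in 0.

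The call of the other 4 depended on the region. Slc9a4, a sodium-proton exchanger of stomach, had the largest difference of all, at 0.581, 0.145 and 0.782 in rats and at 98.9, 99.3 and 99.2 in mice (-98.6 points, SE 9.71, limma adjusted p = 0.00549). Its rat region was 399 bp long with a signal of 1, 0 and 1, and with the region nearest to the gene start the difference was 43.7 points the other way (adjusted p = 0.0449). Vwde, a protein with a von Willebrand factor domain, was at 3.26, 0.875 and 2.74 in rats and at 95.2, 96.9 and 94.3 in mice, and its difference was 10.8 points with the region highest in H3K9me3. Grxcr1 (a protein of inner ear hair cells) and Aass (an enzyme of lysine breakdown) lost the call with either choice of region and with the highest signal of a region.

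Genes higher in mice had somewhat fewer promoter CpGs in the rat sequences than all genes. The share with fewer than 5 CpGs was 22.0% (102 of 464) among genes higher in mice and 15.3% (67 of 438) among genes higher in rats, against 12.3% of all genes, and 14.8%, 6.35% and 7.61% where the rat region held the gene start. The GRCr8 promoters of 2 genes higher in mice are printed to show that a gene at the bottom of the rat ranking can have as few CpGs as those high in both, with every CpG in capitals. Vwde (chr4:42468943-42469242, minus strand) has 2 CpGs and Crygb (chr9:73957215-73957514, minus strand) has 4.
Vwde: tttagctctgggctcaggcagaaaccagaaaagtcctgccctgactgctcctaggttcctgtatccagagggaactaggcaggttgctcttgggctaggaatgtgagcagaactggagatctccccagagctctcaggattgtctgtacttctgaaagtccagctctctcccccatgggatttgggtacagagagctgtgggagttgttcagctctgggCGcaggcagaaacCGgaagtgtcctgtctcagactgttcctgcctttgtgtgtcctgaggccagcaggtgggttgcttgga
Crygb: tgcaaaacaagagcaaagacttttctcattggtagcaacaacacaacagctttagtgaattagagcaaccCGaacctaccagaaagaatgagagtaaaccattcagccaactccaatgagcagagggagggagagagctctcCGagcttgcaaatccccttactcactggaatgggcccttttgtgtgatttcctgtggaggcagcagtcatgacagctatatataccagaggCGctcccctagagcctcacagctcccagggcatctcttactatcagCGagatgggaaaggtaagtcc

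The other marks at the genes called were read against their own species differences, which were wide. Over all genes, limma called H3K4me3 higher in rats at 31.9% and higher in mice at 30.3%, H3K9Ac at 32.1% and 33%, and H3K27me3 at 21.7% and 21.2%. Among the 580 genes with more H3K9me3 in rats, H3K4me3 was higher in rats at 163 (28.1%) and higher in mice at 238 (41.0%), and H3K9Ac higher in rats at 190 (32.8%) and higher in mice at 260 (44.8%). Among the 599 genes with more H3K9me3 in mice, H3K4me3 was higher in rats at 249 (41.6%) and higher in mice at 155 (25.9%), and H3K9Ac higher in rats at 239 (39.9%) and higher in mice at 179 (29.9%). In both sets the active marks were thus more often higher in the species with less H3K9me3 than over all genes. H3K27me3 was higher in rats at 149 (25.7%) and in mice at 141 (24.3%) of the first set, and at 101 (16.9%) and 156 (26.0%) of the second. Over all genes, the rat minus mouse difference in H3K9me3 had a Spearman correlation of 0.178 with that in H3K27me3, 0.0110 with that in H3K4me3 and 0.165 with that in H3K9Ac.

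The same contrast in the exposed animals, which used other libraries, mostly gave the same direction. It used the same regions, chosen with these libraries among the others, so a mismatch of regions between the species would recur here. Only rats had VPA and only mice had poly I:C, so exposure and species change together. In 6 exposed rat and 6 exposed mouse libraries limma called 1380 genes higher in rats (9.54%) and 852 higher in mice (5.89%). Of the 580 genes higher in control rats, 512 had a positive difference there and 400 were called in that direction, with a median difference of 42.7 points against 57.6 in controls. Of the 599 higher in control mice, 553 had a negative difference and 288 were called, with a median of -30.1 points against -55.9 in controls. Slc9a4 was at 19.2 in exposed rats and 61.6 in exposed mice and was not called (adjusted p = 0.181). Cd209b, high in both control groups, was at 99.5 in exposed rats and 85.0 in exposed mice.

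Genes on the X chromosome in both tables ranked low for H3K9me3 in both species. The 316 genes on the X in both tables had a median percentile of 12.0 in rats and 3.18 in mice, with library medians of 4.79, 7.03 and 7.42 in rats and 1.86, 1.88 and 2.45 in mice. The 14034 genes on an autosome in both stood at 49.6 in rats and 49.9 in mice. In signal, the X genes had library medians of 1.25, 1.27 and 1.28 in rats and 1.41, 1.36 and 1.35 in mice. The autosomal genes had 1.62, 1.71 and 1.72 in rats and 2.16, 1.91 and 1.83 in mice. Every library of both species had a low X, and the rat and mouse library medians did not overlap. Single X genes rarely passed the test, with 5 called higher in rats (1.58%) and 1 higher in mice (0.316%). H3K27me3 was low on the X as well, at 19.2 ± 1.94 in rats and 3.34 ± 0.507 in mice, but H3K4me3 was not, at 59.9 ± 3.15 in rats and 65.9 ± 0.539 in mice. The 67 genes placed on an autosome in the rat table and on the X in the mouse table stood at 15.4 in rats and 4.76 in mice, near the X genes of each species, with 9 called higher in rats (13.4%) and 0 in mice. The 41 genes placed on the X in the rat table and on an autosome in the mouse table were not low, at 68.7 in rats and 52.9 in mice, with library medians of 59.4, 63.6 and 64.5 in rats and 55.6, 62.3 and 50.7 in mice. The labels do not give the sex of the animals. At Eif2s3y, on the mouse Y chromosome, H3K4me3 in the control mouse libraries averaged a signal of 10.5, at percentile 51.6. The number of X copies per cell is not known from the labels, and its part in the low X ranks was not tested.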

How the data were processed

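The deposited values were mean ChIP-seq signal, highest signal and called intervals per merged region, 1 table per species, per the file headers. The submitters' processing notes name BWA 0.7.12 and the rn5 and mm10 builds; neither the peak caller nor how libraries were scaled is given in the sources used. The tables hold no read counts, so depth is unknown. Genes, gene lists, alternatives and tests were chosen with earlier results of these data known. Mean signal was ranked within each library over 14458 genes, and percentiles were compared with limma 3.58.1 (R 4.3.3, mean-dependent prior, robust, Benjamini-Hochberg at 0.05), 3 rat against 3 mouse libraries, a step tested on simulated data. The other marks and the exposed libraries were fitted in the same way. Genes sharing a region share its value. Named genes were the 12 highest in both species, the 12 with the largest difference in each direction among called genes without overlap, and list members by level (3) and by difference (2); other genes given by name were picked as called or high members of a list after their values were seen. Library numbers do not pair the species. Coordinates of regions are those of the tables (rn5, mm10) and those of promoters are GRCr8.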

Additional observations from a re-analysis of the deposited data

How the results depend on the processing

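The counts of genes higher in rats (580) and in mice (599) depended on the libraries and on the region chosen for a gene. Leaving out 1 library at a time gave 188 to 498 genes higher in rats and 144 to 706 higher in mice. Leaving out rat library 1 and mouse library 1 gave 0 and 0 genes and a Spearman correlation between species of 0.360; that alternative and the restriction to regions at the gene start, with 229 and 232 genes and a Spearman correlation of 0.483, were chosen after seeing the data. With the region highest in control H3K9me3 there were 1231 and 1144 genes, of which 327 and 304 were called with the region used here. Requiring an interval in at least 2 libraries of either species left 408 genes higher in rats, 292 higher in mice and a Spearman correlation of -0.00957. Since that filter drops genes low in both species, it can lower the correlation by itself. The Spearman correlation was 0.378 with 1 gene per pair of regions, 0.538 with the highest signal and 0.319 within bins of region length. With a replicate block there were 156 and 163 genes; library numbers of the species come from separate tables and same-numbered libraries did not deviate together (r of -0.134, -0.0257 and -0.0589), so the block is no pairing. Of the named genes, 4 differences changed sign: Hsd17b3 (-1.43 points) and Slc9a4 (43.7) with the region nearest to the gene start, and Nxph2 (-6.69) and Vwde (10.8) with the region highest in H3K9me3; the cause was not tested. Of all values of named differences under the alternatives, 424 kept direction and call and 38 kept direction only. Of those of gene lists, 385 moved by less than the spread between libraries and 4 by more: the median difference was -2.57 for large neuronal adhesion genes (10.4 as reported) and 10.9 for oligodendrocyte markers (-3.52) with the region highest in H3K9me3, -0.855 for other clustered families (-5.77) with the interval required, and -0.0110 for astrocyte markers (-12.7) with the highest signal. With 3 libraries a group and no depth, small differences in the middle of the ranking could not be detected.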
